A study of Homo sapiens with 24 samples.

Results

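The complement components and regulators measured here were 9 genes of the complement cascade: the initiating proteases C1S and C1R, the central component C3, the alternative pathway proteases CFB and CFD, and the regulators CFI, SERPING1, CD55 and CD59. They were found by gene name among the 30982 gene names of an Agilent 2-colour array and had 15 of its 41000 probes. The group was selected on the log2 ratio of C1S, which was among the genes that fell most when the SRC inhibitor Si306 was added, so the values of C1S with Si306 are given below as a description, without a test.

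The samples were labelled as cultures of U87 MG, an established human glioblastoma cell line, harvested 24 h after proton therapy (PT). In the configurations U87 2 Gy and U87 10 Gy, irradiated cells (Cy5 dye) were compared with untreated U87 cells (Cy3 dye). In U87 Si306 + 2 Gy, and at the higher dose in U87 Si306 + 10 Gy, cells given 10 µM Si306 and PT (Cy5) were compared with cells given PT alone at the same dose (Cy3), so the control of these configurations was itself irradiated. There was no configuration of Si306 without PT, and no array had the dyes swapped. Each configuration had 6 scan tables labelled as biological replicates, but the headers name 8 arrays on 2 slides, each array scanned 3 times. With Si306 labels and headers matched. With PT, U87 2 Gy replicate 5 was a scan of an array whose other scans were labelled U87 10 Gy. For U87 10 Gy replicate 2 it was the reverse. These 2 scans were left out, so array 2 of each PT configuration takes its dose from the label most of its scans carry. Thus n = 2 arrays for every value below. Nothing in the labels says whether the 2 arrays of a configuration came from separate cultures. The p-values therefore measure the spread between arrays, which may be technical.

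Complement is a chain of plasma and membrane proteins that marks cells and microbes for removal. In the classical pathway C1R activates C1S inside the C1 complex, and C1S then cleaves C4 and C2. In the alternative pathway CFD cleaves CFB bound to C3, and both pathways meet at C3. Host cells limit the chain with the C1 inhibitor SERPING1, with CFI, which cuts activated C3 and C4, with CD55, which speeds the decay of the convertases, and with CD59, which blocks the final pore. The liver makes most plasma complement, while astrocytes, microglia and glioma cells are known to transcribe several of these genes locally, and interferons and inflammatory cytokines raise many of them.

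The slides stood apart before any treatment was compared. Both PT configurations were on slide 1 and both Si306 configurations on slide 2, and RNA with the same label had different levels on the slides. For RNA labelled U87 2 Gy, read in Cy5 on slide 1 and in Cy3 on slide 2, 26.5% of 28276 probes differed more than 2-fold and 2.82% more than 8-fold, and for RNA labelled U87 10 Gy the shares were 26.7% and 2.94%. Levels correlated at 0.989 to 0.999 across 30418 probes between channels of 1 slide and at 0.870 to 0.885 between slides. Genes chosen after their values were seen show the size: UCHL1 had a log2 level of 16.62 on slide 1 and 6.01 on slide 2 in RNA labelled U87 2 Gy, and KRT19 had 7.40 and 16.69. In the same RNA SPINT2 had 6.71 and 15.95, and SPP1 14.52 and 6.29. Whether both slides held the same cells was not tested, and every value with Si306 is read on slide 2 alone. Of 8 markers listed for a mesenchymal glioma line, 7 were well above background in both channels of all 8 arrays, and the exception was CHI3L1, at a log2 level of 12.83 on slide 1 and 6.21 on slide 2. Of 8 markers listed for microglia and macrophages, AIF1, CX3CR1 and PTPRC were above background on no array, CSF1R, CD68 and CD14 were above it in both channels of all 8, and TYROBP and ITGAM on part of them, and their part in the results was not tested. Of 4 fibroblast markers, COL1A1, COL1A2 and DCN were above it in both channels of all 8 arrays and LUM on 4, and of 4 astrocyte markers GFAP and SLC1A3 were so on all 8, ALDH1L1 on part and AQP4 on none. Of 4 hepatocyte markers, 0 were above background throughout. The part of these cell types in the results was not tested either. Each ratio below compares 2 RNAs on 1 array, but slide, RNA source and Si306 cannot be told apart between the slides.

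The complement genes moved with the slide as well. In RNA labelled U87 2 Gy the log2 level of C1S was 11.66 on slide 1 and 10.24 on slide 2, that of CFI was 12.08 and 9.51, and that of CD55 was 10.13 and 9.26. The opposite order was seen for CFB, with 7.84 and 10.23, for CD59, with 14.36 and 15.20, and for CFD, with 6.06 and 8.91. C1R had 10.73 and 10.46. CFD was not well above background in either channel on slide 1 and was above it on slide 2, so it has a usable ratio only with Si306. SERPING1 was not well above background in either channel on any array and could not be tested. The counts below leave out CFD with PT and C1S with Si306, so each is over 7 members. In extracts of whole cultures, fewer cells that make an RNA and less of that RNA per cell cannot be told apart.

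**Figure D1:**
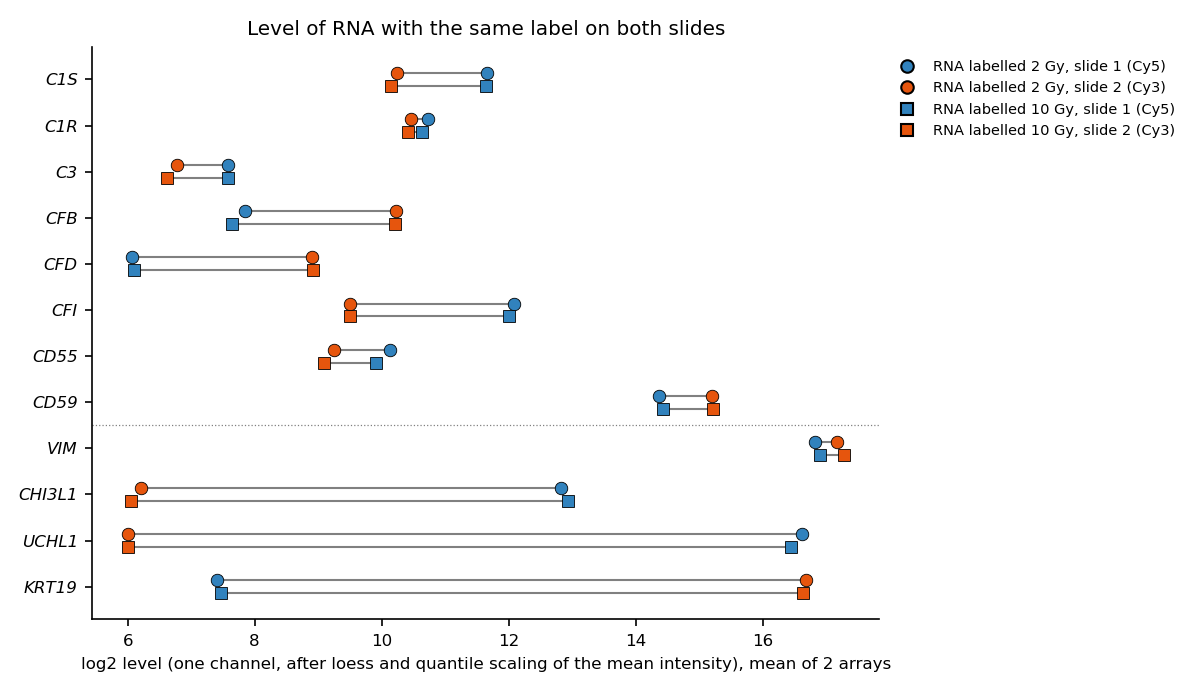
Log2 level of the 8 tested complement genes and of 4 other genes in RNA carrying the same label on slide 1 (blue, Cy5) and on slide 2 (orange, Cy3), where circles are U87 2 Gy, squares U87 10 Gy, and each point is the mean of 2 arrays. C1S and CFI lay lower on slide 2, CFB, CFD and CD59 higher, and UCHL1 and KRT19 differed by -10.61 and 9.29 (slide 2 minus slide 1) at 2 Gy.

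Sequences are shown for 3 genes. The 2 CFI probes gave different signs with Si306 at 10 Gy (below), so both are printed as the array annotation holds them. Their positions on build hg17, minus strand, are chr4:111019668-111019727 and chr4:111028260-111028319.
CFI probe A_23_P7212: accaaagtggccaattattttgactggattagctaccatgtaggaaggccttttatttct
CFI probe A_24_P92472: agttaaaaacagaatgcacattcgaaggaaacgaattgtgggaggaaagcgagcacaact
The 250 bases before the start of CFB (RefSeq, GRCh38.p14, chr6:31945845-31946094, plus strand) are shown because this window held more of the motifs searched than that of any other member, and no result here rests on them. Capitals mark, from left to right, the letters of an interferon-stimulated response element core (first base at -140 from the start), an interferon-gamma activated site (GAS, TTCNNNGAA, at -92) and a TATA box (TATAAA, at -30).
CFB: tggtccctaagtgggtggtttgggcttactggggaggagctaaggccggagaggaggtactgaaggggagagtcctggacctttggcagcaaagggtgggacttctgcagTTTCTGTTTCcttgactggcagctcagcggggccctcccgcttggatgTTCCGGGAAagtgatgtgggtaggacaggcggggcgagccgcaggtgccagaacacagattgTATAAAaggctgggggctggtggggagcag
A stretch before C1R (GRCh38.p14, chr12:7091960-7091989, minus strand) is shown because C1R is the partner of C1S in the C1 complex, with its GAS letters in capitals.
C1R: gccagtcctaTTCCTGGAAggggaggggag
Among 35116 RefSeq windows of this length, searched on both strands, 6.57% held GAS letters, 3.02% the response element core and 10.7% a TATA box. Of the 10 windows of member genes, 4 held GAS letters (CFB, C1R and 2 of CD59), and 1 each (CFB) held the response element core and the TATA box. Windows of 1 gene are not independent: CD59 had 4 and C1R 2. The 2 CD59 matches had the same letters, and whether they are 1 site was not tested. Neither the kappa-B letters nor the C/EBP letters TTGCGCAA were in a member window, against 0.179% and 0.131% of all windows. The reference used held no window for C1S, C3 or SERPING1, so the letters before C1S could not be searched. A match describes the letters only.

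After PT alone, C1S and C1R were up regulated at both doses by small amounts and CD55 was down regulated after loess, and no member reached a 2-fold change. C1S fell in the separate-channel model, a fit described below. At 2 Gy, 4 of 7 members passed the test (adjusted p under 0.05, limma with Benjamini-Hochberg adjustment over all genes), 3 higher (C1S, C1R, CFI) and 1 lower (CD55). Of all 22915 genes tested, 57% passed, 32.1% higher and 24.9% lower. At 10 Gy, 6 of 7 passed, 4 higher (C1S, C1R, C3, CFI) and 2 lower (CFB, CD55), beside 57.3% of 22931 genes, 31.1% higher and 26.2% lower. The number of DEGs, here genes past the test with at least a 2-fold change, was 0 members at either dose, beside 0.724% and 0.964% of all genes. The median log2 fold change of the 7 members was 0.04 at 2 Gy and 0.13 at 10 Gy, and that of all genes was 0.02 at both.

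Another scaling, centring each scan on its median in place of loess, moved the median log2 fold change of all genes to 0.27 and 0.22 in U87 2 Gy and U87 10 Gy and to 0.43 and 0.26 with Si306 at 2 and 10 Gy. Values under median centring are therefore given below relative to the median gene. Fitting the background correction on all spots, flagged ones included, left 2 and 0 of the 7 members passing with PT at 2 and 10 Gy and 4 and 2 with Si306. The share of all genes passing with that fit is not given here. Counts with that fit, here and below, therefore cannot be read as results about the members.

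Adding Si306 to PT went with lower C1S and C1R and higher CFD and CD55 than PT alone at the same dose after loess. These signs held relative to the median gene with median centring, while CD55 was below 0 in the separate-channel model. Without C1S, which has no test here, 5 of 7 members passed the same rule at 2 Gy, 4 higher (C3, CFD, CD55, CD59) and 1 lower (C1R), beside 66.4% of 22908 genes, 38.5% higher and 27.8% lower. At 10 Gy 7 of 7 passed, 5 higher (C3, CFB, CFI, CFD, CD55) and 2 lower (C1R, CD59), beside 62.2% of 22930 genes, 35.1% higher and 27.1% lower. The brightest probe stands for a gene in these counts, and other probes of CFI and CD59 went the other way (below). The control channel of C3 was well above background on only 1 of 2 arrays at each dose. CFD at 2 Gy was the only DEG among the 7, beside 0.725% of all genes (0.567% up), and at 10 Gy there was none, beside 0.371%. Medians of the 7 were 0.17 and 0.24 on the log2 scale, against 0.04 and 0.03 for all genes.

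**Figure D2:**
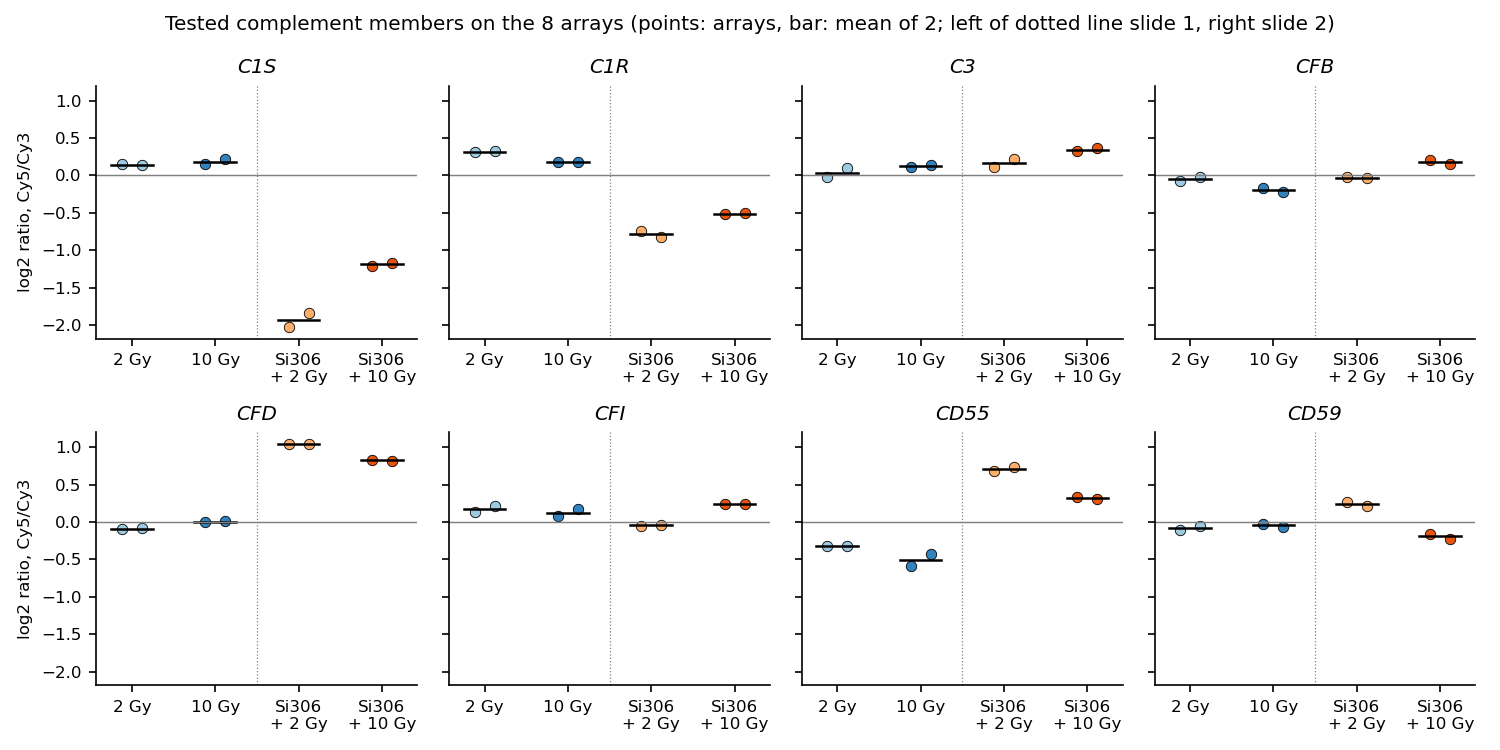
Log2 ratio of treated (Cy5) to control (Cy3) RNA for the 8 tested complement genes, with 1 point per array, a bar at the mean of 2 arrays and a dotted line between slide 1 (left) and slide 2 (right). C1S lay between -2.03 and -1.17 on the Si306 arrays, CFD between 0.82 and 1.04, and every other point within 1 of 0; relative to the median gene, median centring turned the signs of C3 at 2 Gy and CD59 at 10 Gy with Si306 among the values that passed.

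C1S, the protease that cleaves C4 and C2, had log2 ratios of 0.15 and 0.14 on the U87 2 Gy arrays and 0.15 and 0.21 on the U87 10 Gy arrays. With Si306 the ratios were -2.03 and -1.84 at 2 Gy and -1.21 and -1.17 at 10 Gy. All 4 PT arrays lay above 0 and all 4 Si306 arrays far below them, without overlap between the doses with Si306. The increase with PT was 0.15 ± 0.04 (log2 fold change ± SE, n = 2 arrays, limma adjusted p = 0.0141) at 2 Gy and 0.18 ± 0.04 (adjusted p = 0.00383) at 10 Gy, and became -1.29 and -1.30 in an alternative fit to the separate channels that gives each probe its own dye effect (called the separate-channel model below). Relative to the median gene with median centring it was 0.49 and 0.46. The separate-channel model assumes the same level of same-label RNA on both slides, which the levels above go against. The calls with PT were lost by the scanner's ratio (adjusted p = 0.142 and 0.0621), with background correction fitted on all spots (0.186 and 0.12), without either array at 2 Gy (0.089 and 0.072) and without array 2 at 10 Gy (0.085). The fall with Si306, as a description, was -1.93 ± 0.04 at 2 Gy and -1.19 ± 0.04 at 10 Gy. It was -1.11 and -0.42 with background correction fitted on all spots, -2.21 and -1.37 by the scanner's ratio and -3.38 and -2.66 in the separate-channel model, and spots flagged as outliers were dropped before the correction only after the values of C1S had been seen. C1S ranked 2 from the lowest of 22908 genes at 2 Gy and 5 of 22930 at 10 Gy.

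C1R, which activates C1S and lies beside it on chromosome 12, had PT log2 ratios of 0.31 and 0.32 at the lower dose and of 0.18 and 0.17 at the higher. The Si306 arrays gave -0.74 and -0.82 at 2 Gy and -0.51 and -0.51 at 10 Gy. Arrays of the 4 configurations did not overlap. PT raised C1R by 0.32 ± 0.03 (limma adjusted p = 1.03e-05) at 2 Gy and by 0.18 ± 0.03 (adjusted p = 0.000707) at 10 Gy, and in the separate-channel model these were 0.06 (adjusted p = 0.327) and -0.05 (adjusted p = 0.414), while relative to the median gene with median centring they were 0.62 and 0.43. The call at 10 Gy was also lost with background correction fitted on all spots (0.128). With Si306 it fell, with a log2 fold change of -0.78 ± 0.03 (adjusted p = 1.33e-08) at 2 Gy and of -0.51 ± 0.03 (adjusted p = 2.95e-07) at 10 Gy. The call at 10 Gy was lost with background correction fitted on all spots (-0.21, adjusted p = 0.0817). With median centring the values were 0.02 (adjusted p = 0.702) and 0.03 (adjusted p = 0.646), so that C1R lay at -0.41 and -0.23 relative to the median gene, and C1S at -1.66 and -0.95.

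C3, on which both pathways converge, was dim and moved little. In each Si306 configuration its control channel (Cy3) was well above background on only 1 of 2 arrays. Its log2 ratios were -0.03 and 0.10 at 2 Gy, 0.12 and 0.14 at 10 Gy, 0.11 and 0.22 with Si306 at 2 Gy and 0.33 and 0.36 with Si306 at 10 Gy. The arrays of U87 Si306 + 10 Gy were the highest. The log2 fold change of 0.35 ± 0.04 there (limma adjusted p = 2.33e-05) and of 0.17 ± 0.04 (adjusted p = 0.00346) at 2 Gy turned to -0.55 and -0.69 in the separate-channel model and were 0.77 and 0.40 by the scanner's ratio. With median centring these were 0.02 and -0.37 relative to the median gene, and with background correction fitted on all spots 0.02 and 0.03, neither passing. Without array 2 of U87 Si306 + 2 Gy the call at 2 Gy was lost (adjusted p = 0.103). With PT it was 0.13 ± 0.04 (adjusted p = 0.0185) at 10 Gy and 0.04 ± 0.04 (adjusted p = 0.451) at 2 Gy, with -0.79 at both doses in the separate-channel model. The call at 10 Gy was lost by the scanner's ratio (adjusted p = 0.428), with background correction fitted on all spots (0.151) and without either array of that configuration (0.0989 and 0.146).

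CFB, the protease of the alternative pathway convertase, had log2 ratios of -0.07 and -0.02 at 2 Gy, -0.17 and -0.22 at 10 Gy, -0.03 and -0.03 with Si306 at 2 Gy and 0.20 and 0.16 with Si306 at 10 Gy. The arrays of the 10 Gy configurations lay farthest from 0. CFB fell with PT at 10 Gy (log2 fold change -0.19 ± 0.03, limma adjusted p = 0.000394), which was -0.18 relative to the median gene with median centring, -0.39 by the scanner's ratio and 2.30 in the separate-channel model. It rose with Si306 at 10 Gy (0.18 ± 0.03, adjusted p = 0.000665), which was 0.46 relative to the median gene and 2.67 in the separate-channel model. The latter call was lost with 1 scan per array (0.12, adjusted p = 0.0631), and both were lost with background correction fitted on all spots (adjusted p = 0.163 with PT and 0.0842 with Si306). Its values of -0.05 (adjusted p = 0.229) and -0.03 (adjusted p = 0.466) at 2 Gy, with PT and with Si306, did not pass. The value with PT at 2 Gy passed by the scanner's ratio (-0.12, adjusted p = 0.0208) and with scans as samples (adjusted p = 0.026 with the replicate block and 0.0123 without), and that with Si306 at 2 Gy turned to 0.36 relative to the median gene. The separate-channel model gave 2.41 and 2.44 for them.

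CFD, which cleaves CFB and is also known as adipsin, gave Si306 log2 ratios of 1.04 on both arrays at the lower dose and of 0.83 and 0.82 at the higher. All 4 arrays were high and the doses did not overlap. CFD was up regulated 2.06-fold (log2 fold change 1.04 ± 0.03, limma adjusted p = 1.3e-09) at 2 Gy and 1.77-fold (0.82 ± 0.03, adjusted p = 1.06e-08) at 10 Gy, and held rank 22794 of 22908 and 22799 of 22930 from the lowest. With background correction fitted on all spots the log2 fold changes were 0.64 and 0.26, which passed the test but were under 2-fold at both doses. Relative to the median gene with median centring they were 1.33 and 1.04, each over 2-fold. The separate-channel model gave 3.88 and 3.65, with a dye effect of -2.83 that rests on slide 1, where CFD was below background. Those 2 values therefore cannot bear on the size of the rise. On the PT arrays both channels were below the background limit, so CFD has no fold and no call there.

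CFI was read by 2 probes with unlike results. The brighter probe, A_23_P7212, gave 0.13 and 0.21 at 2 Gy, 0.08 and 0.17 at 10 Gy, -0.05 and -0.04 with Si306 at 2 Gy and 0.24 and 0.24 with Si306 at 10 Gy. The other, A_24_P92472, gave 0.13 and 0.20, 0.14 and 0.16, -0.51 and -0.55, and -0.34 and -0.29 in the same order. The probes overlapped on every PT configuration and lay apart on all Si306 arrays. By the brighter probe CFI rose with PT (0.17 ± 0.04, limma adjusted p = 0.00152, and 0.13 ± 0.04, adjusted p = 0.0101), where the separate-channel model gave -2.37 and -2.41 and median centring 0.53 and 0.42 relative to the median gene. The call at 10 Gy was lost by the scanner's ratio (adjusted p = 0.113), with background correction fitted on all spots (0.114) and without array 2 of U87 10 Gy (0.185). With Si306 at 10 Gy it rose by that probe (0.24 ± 0.04, adjusted p = 0.000129) and fell by the other (-0.31 ± 0.03, adjusted p = 1.52e-05 over all probes), the former not passing with background correction fitted on all spots (0.312), lying at 0.48 relative to the median gene with median centring and at -2.30 in the separate-channel model, and the mean of both was -0.04, so no direction is given for the gene.

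CD55, the membrane protein that dissociates the convertases, had 3 probes. The brightest, A_24_P188377, gave log2 ratios of -0.32 and -0.32 at 2 Gy, -0.59 and -0.42 at 10 Gy, 0.68 and 0.73 with Si306 at 2 Gy and 0.34 and 0.31 with Si306 at 10 Gy. A_23_P374862 gave -0.47 and -0.53, -0.76 and -0.73, 0.90 and 0.84, and 0.48 and 0.43. Both probes were low on the 4 PT arrays and high on the 4 Si306 arrays. The third, A_23_P312008, was low on the PT arrays (-0.13 to -0.30) and not above background on slide 2. By the brightest probe CD55 was down regulated by PT (-0.32 ± 0.04, limma adjusted p = 5.31e-05, and -0.51 ± 0.04, adjusted p = 1.46e-06), and lay at -0.02 at 2 Gy and -0.27 at 10 Gy relative to the median gene with median centring and at -1.16 and -1.35 in the separate-channel model. It was up regulated with Si306 (0.71 ± 0.04, adjusted p = 1.15e-07, and 0.32 ± 0.04, adjusted p = 4.59e-05), with 1.02 and 0.53 relative to the median gene with median centring and -0.14 and -0.52 in the separate-channel model. With background correction fitted on all spots CD55 did not pass with PT (adjusted p = 0.529 and 0.0527) or with Si306 at 10 Gy (0.876). RNA labelled PT alone is the treated side of the first pair of values and the control side of the second.

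CD59, the inhibitor of the membrane attack pore, had 4 probes, which disagreed. With PT the brightest, A_24_P141481, lay between -0.11 and -0.03 and did not pass (-0.08 ± 0.03, limma adjusted p = 0.0626, and -0.05 ± 0.03, adjusted p = 0.279). The 3 others lay between 0.22 and 0.70 with PT and each passed at both doses. With Si306, A_24_P784765 lay between -0.46 and -0.39, while A_23_P75523 and A_24_P639441 lay between 0.17 and 0.40. The brightest probe gave 0.26 and 0.21 at 2 Gy and -0.16 and -0.23 at 10 Gy, so the gene passed as higher at 2 Gy (0.23 ± 0.03, adjusted p = 0.00012) and as lower at 10 Gy (-0.19 ± 0.03, adjusted p = 0.000537), the latter turning to 0.42 relative to the median gene with median centring and to 0.61 in the separate-channel model. The value at 2 Gy was 1.15 and 1.04 in these alternatives, and its call was lost by the scanner's ratio (0.08, adjusted p = 0.115). With PT the brightest probe passed as lower by the scanner's ratio (-0.12 at both doses, adjusted p = 0.0353 and 0.0379), and turned to 0.36 and 0.32 relative to the median gene and to 0.72 and 0.76 in the separate-channel model. No direction is given for CD59 as a gene.

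**Figure D3:**
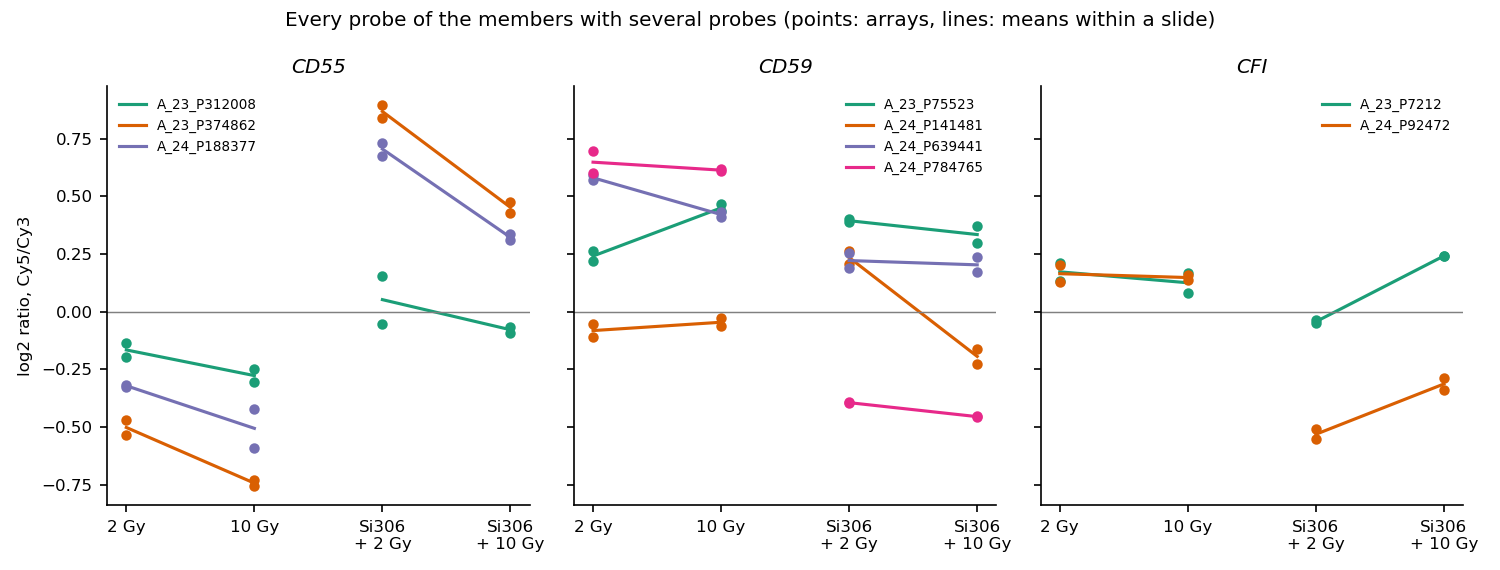
Log2 ratio of treated (Cy5) to control (Cy3) RNA for every probe of CD55, CD59 and CFI, with 1 point per array and lines joining the means of the doses within a slide. The 2 CFI probes part only with Si306, where their means were 0.24 and -0.31 at 10 Gy, and 1 of 4 CD59 probes (A_24_P784765) lay below 0 on all Si306 arrays; median centring turned the sign of the brightest CD59 probe with PT and with Si306 at 10 Gy, also relative to the median gene.

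SERPING1, the inhibitor of C1R and C1S, gave no ratio that can be read as a change, because its single probe was not well above background in either channel of any array. Its GC content, like that of the other 14 member probes, lay within 35 to 55%, which is also the central range of all probes.

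The doses were compared directly within a slide, where a dye effect of a probe cancels. With PT alone 2 of 7 members differed between 10 Gy and 2 Gy, both lower, beside 21% of 22914 genes (9.86% higher, 11.1% lower): CFB (-0.15 ± 0.05, limma adjusted p = 0.0463) and CD55 (-0.18 ± 0.06, adjusted p = 0.0433). These calls were lost when each slide was fitted on its own (adjusted p = 0.0972 and 0.0817), and 0 or 1 member passed when any of the 8 arrays was left out. C1S differed by 0.04 ± 0.06 (adjusted p = 0.717).

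With Si306 all 7 members with a test differed between the doses, when 22.6% of 22906 genes did (10.1% higher, 12.5% lower), though with background correction fitted on all spots only CFD and CD59 did. C1R was 0.27 ± 0.05 (limma adjusted p = 0.00243) higher at 10 Gy, that is, less reduced than at 2 Gy, and with median centring was 0.01 higher before the median gene is taken off (adjusted p = 0.956) and 0.14 higher relative to the median gene, which has no test of its own. C1S, as a description, was 0.75 ± 0.06 higher, with 0.67 relative to the median gene. CFD (-0.22 ± 0.04, adjusted p = 0.00509) and CD55 (-0.38 ± 0.06, adjusted p = 0.00126) were less raised at 10 Gy. The ratios of C3 (0.18, limma adjusted p = 0.0441) and CFB (0.21, adjusted p = 0.00994) were higher at 10 Gy. Each value of this paragraph is a difference of ratios, and each ratio has its own control, PT alone at the same dose. For C3 the log2 level of treated RNA was 6.95 at 2 Gy and 6.96 at 10 Gy, and that of the control 6.78 and 6.62. The call of C3 was lost without a filter (adjusted p = 0.0778), with 1 scan per array (0.0585), by the scanner's ratio (0.209), in the separate-channel model (0.301) and with all scans kept under their label (0.122). It was also lost without either U87 10 Gy array (0.0691 each), either U87 Si306 + 10 Gy array (0.11 and 0.191) or U87 Si306 + 2 Gy array 1 (0.257), and its value was -0.01 with background correction fitted on all spots. The call of CFB was lost with 1 scan per array (0.077), with all scans kept under their label (0.08), without array 1 of U87 Si306 + 10 Gy (0.0768) or of U87 Si306 + 2 Gy (0.0529), and with median centring before the median gene is taken off (-0.08, adjusted p = 0.42), which is 0.06 relative to the median gene. The ratio of CFI was higher at 10 Gy by both probes (0.29 and 0.22, limma adjusted p = 0.00286 and 0.0104), though A_24_P92472 lay below 0 at both doses. With median centring the first difference was 0.06 before the median gene is taken off (adjusted p = 0.582) and 0.19 relative to the median gene. By the scanner's ratio CFD did not pass (0.7). CD59 was lower by its brightest probe (-0.43 ± 0.05, adjusted p = 0.000213), and its 3 other probes differed by -0.06 to -0.02 and did not pass. Relative to the median gene with median centring the differences were 0.34 for C3, -0.34 for CFD, -0.54 for CD55 and -0.77 for CD59.

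Of 47 other complement genes listed, 46 were on the array and 33 were tested. With PT, 10 (30.3%) passed as higher at each dose, beside 32.1% and 31.1% of all genes. As lower passed 4 (12.1%) at 2 Gy (C5, C7, C5AR1 and ITGB2) and 5 (15.2%) at 10 Gy (these and CD46), beside 24.9% and 26.2%. With Si306, 10 were higher (30.3%, beside 38.5% of all genes) and 12 lower (36.4%, beside 27.8%) at 2 Gy, and 9 higher (27.3%, beside 35.1%) and 6 lower (18.2%, beside 27.1%) at 10 Gy. In each configuration 2 of these calls were of probes not above background. The medians of the 33 genes were 0.03, 0.06, -0.01 and 0.04, beside 0.02, 0.02, 0.04 and 0.03 for all genes.

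For C2 and C4, the substrates of C1S, the ratios after loess fell with Si306 at 2 Gy, and at 10 Gy only C2 passed as lower. The ratio at 10 Gy was above that at 2 Gy by 0.18 for C2 and 0.64 for C4B. C2 had log2 ratios of -0.49 and -0.52 with Si306 at 2 Gy and -0.31 and -0.35 at 10 Gy, below the PT arrays, which lay between -0.09 and -0.03. Its fall (log2 fold change -0.51, limma adjusted p = 2.29e-07, and -0.33, adjusted p = 7.04e-06) was -0.29 and -0.12 relative to the median gene with median centring, but 1.83 and 2.04 in the separate-channel model. With PT it passed as lower by the scanner's ratio (-0.14, adjusted p = 0.0178, and -0.26, adjusted p = 0.00171) and was 2.30 and 2.29 in the separate-channel model. With background correction fitted on all spots the Si306 values were -0.25 and -0.08, the latter not passing (adjusted p = 0.35). C4B gave -0.54 and -0.60 with Si306 at 2 Gy but 0.09 and 0.04 at 10 Gy, with log2 fold changes of -0.57 (limma adjusted p = 1.88e-07) and 0.07 (adjusted p = 0.118), which were -0.36 and 0.28 relative to the median gene with median centring and 1.85 and 2.49 in the separate-channel model. Its difference between doses, 0.64 ± 0.05 (adjusted p = 1.73e-05), was 0.60 and 0.65 in these alternatives, and 0.31 (adjusted p = 0.107) with background correction fitted on all spots, where its value at 2 Gy was -0.28 (adjusted p = 0.0079). C4B and C4A are near-identical genes that a probe may not separate, and C4A was not tested. C1RL, a relative of C1R on chromosome 12, stayed between -0.11 and 0.08 on all arrays and passed in no configuration.

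Among regulators, CD46, a membrane cofactor of CFI, was 0.02 (adjusted p = 0.626) at 2 Gy and -0.24 (adjusted p = 0.000187) at 10 Gy with PT, the latter 0.22 with median centring, at the median gene there, and 1.08 in the separate-channel model. It did not pass with background correction fitted on all spots (-0.15, adjusted p = 0.107). It was -0.45 and -0.46 with Si306 (adjusted p = 1.33e-06 and 1.38e-06), but 0.02 and -0.13 relative to the median gene with median centring and 0.83 and 0.85 in the separate-channel model. GPR77, a second receptor for C5a, was the single DEG of this list, with 2.32 and 2.02 with Si306 at 2 Gy (mean 2.17 ± 0.06, adjusted p = 1.48e-09) and 1.03 and 1.02 at 10 Gy (mean 1.02 ± 0.06, adjusted p = 2.98e-07), and 0.12 and 0.11 with PT, which did not pass. Its rise with Si306 had the same sign by the scanner's ratio (3.24 and 1.76), by the separate-channel model (1.98 and 0.83) and after median centring (2.67 and 1.25, before the median gene is taken off). With background correction fitted on all spots it was 0.77 (adjusted p = 0.00221) and 0.10 (adjusted p = 0.873), so it was a DEG at neither dose and the call at 10 Gy was lost.

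**Figure D4:**
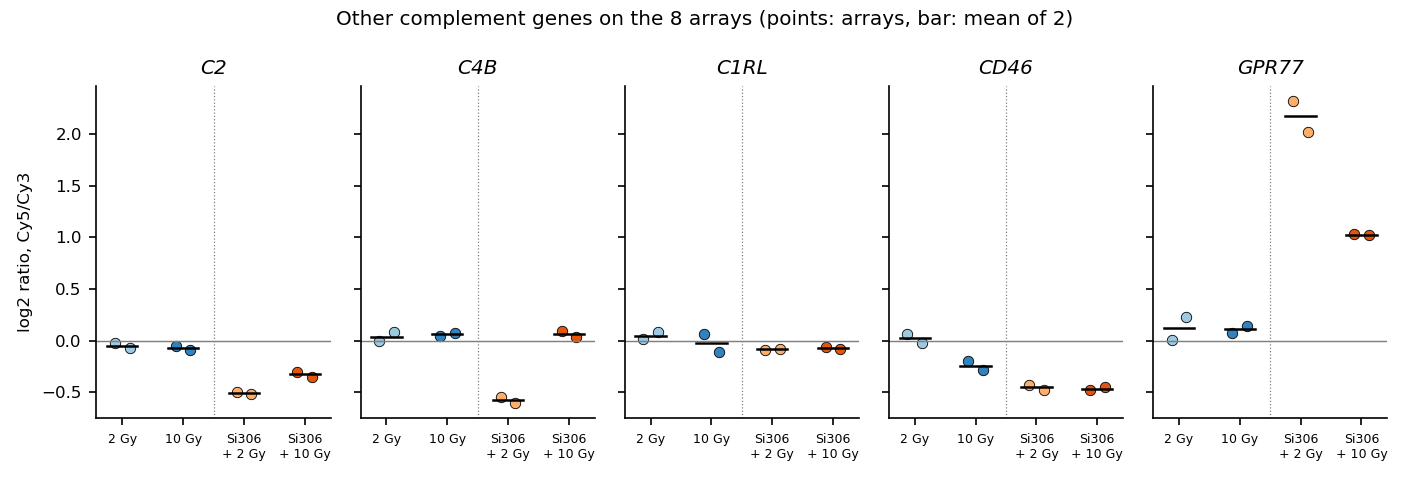
Log2 ratio of treated (Cy5) to control (Cy3) RNA for 5 other complement genes, with 1 point per array, a bar at the mean of 2 arrays and a dotted line between slide 1 (left) and slide 2 (right). GPR77 lay at 2.02 and 2.32 with Si306 at 2 Gy, and C2, C4B and CD46 lay below 0 there, where CD46 was at 0.02 relative to the median gene with median centring.

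Of 30 ligands, receptors and factors known to act on complement transcription, 26 were tested. With PT, 9 (34.6%) passed as higher and 10 (38.5%) as lower at 2 Gy, and 10 (38.5%) and 12 (46.2%) at 10 Gy, beside 32.1% and 24.9%, then 31.1% and 26.2% of all genes. With Si306, 10 (38.5%) passed in each direction at 2 Gy, and 7 (26.9%) as higher and 10 (38.5%) as lower at 10 Gy, beside 38.5% and 27.8%, then 35.1% and 27.1%. None was a DEG. With median centring the split was 22 higher and 2 lower at 2 Gy, 17 and 1 at 10 Gy, 18 and 4 with Si306 at 2 Gy, and 18 and 3 with Si306 at 10 Gy, under a shift of all genes that left 57.5 to 63.5% of them higher and 21.8 to 26.2% lower.

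The 5 genes whose log2 ratios over the 8 arrays lay nearest to those of C1S (smallest Euclidean distance) were HLA-DRB1 (0.681) and HLA-DPB1 (0.767), chains of class II antigen presentation, APOBEC3G (0.832), a cytidine deaminase induced by interferon, LOC349114 (0.921) and the unnamed probe A_24_P101261 (1.05). C1R lay at 1.92, and CFD, at 5.09, was the farthest member. HLA-DRB1 had mean log2 ratios of 0.11 and 0.11 with PT (-0.03 and -0.02 in the separate-channel model) and of -1.59 and -1.51 with Si306, and its probe may read near-identical class II genes. HLA-DPB1 had 0.25, 0.25, -1.49 and -1.43 in the same order. With PT it was -1.92 at both doses in the separate-channel model, and with Si306 -0.66 and -0.29 with background correction fitted on all spots, not passing at 10 Gy (adjusted p = 0.148). APOBEC3G had 0.28, 0.16, -1.36 and -1.13. It was 1.01 and 0.92 with PT and -0.63 and -0.37 with Si306 in the separate-channel model, and -0.53 and -0.21 with Si306 with background correction fitted on all spots, not passing at 10 Gy (adjusted p = 0.15). LOC349114 had -0.33, -0.12, -1.63 and -1.28, and turned to 0.40 and 0.59 with PT in the separate-channel model, which gave -0.89 and -0.58 with Si306. C1S was lower than all 5 at 2 Gy with Si306, while at 10 Gy HLA-DRB1, HLA-DPB1 and LOC349114 were lower than C1S. The ranking describes 8 arrays on 2 slides and carries no test.

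**Figure D5:**
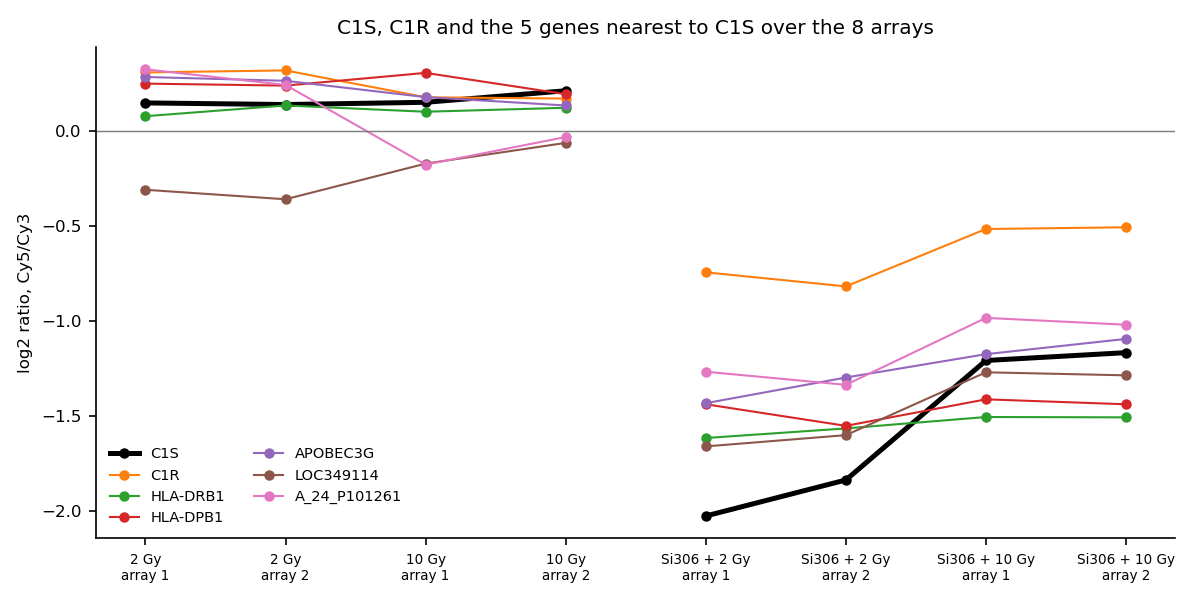
Log2 ratio of treated (Cy5) to control (Cy3) RNA on each of the 8 arrays for C1S (thick black line), C1R (orange) and the 5 genes nearest to C1S, with lines joining the arrays of 1 slide. All 7 lines lay below -0.50 on the Si306 arrays and within 0.36 of 0 on the PT arrays; with median centring C1R lay at -0.41 and -0.23 relative to the median gene with Si306.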

How the data were processed

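RNA from U87 MG cells was measured in 4 configurations on 2-colour arrays (treated Cy5, control Cy3), and the tables were made by the authors with Agilent Feature Extraction 9.5.3.1. The deposited scanner tables give, for 45015 spots, mean signal intensity, local background and a log10 ratio after the software's own background and dye correction. The deposited series matrix holds the same log10 ratio, rounded (largest difference 0.005). The intensities were used here. Headers named 8 arrays scanned 3 times each. Scans were grouped by label, and 2 PT scans whose label disagreed with the other scans of their array were left out, so 22 were used. The members and gene lists were chosen with earlier results of these data known.

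Spots flagged as outliers (3.1 to 5.98% of a scan) were dropped before normexp correction (offset 50), because with them the fitted Cy5 background mean ran from -1278 to -4.62, against -7.06 to -3.71 without. This order was chosen after the values of C1S had been seen. Ratios (log2) were computed here, normalized by loess per scan and averaged over spots, then scans. A probe was kept if 2/3 or more of the arrays in any configuration had it well above background in Cy3 or Cy5 (30418 of 41000 probes), and the brightest stood for its gene. All 8 arrays were fitted together in limma 3.58.1 under R 4.3.3, using the packages statmod (1.5.0) and data.table (1.17.8), on 4 residual degrees of freedom and a prior of 6.552, with Benjamini-Hochberg adjustment over 22932 genes at most. The test was tried on simulated data. C1S with Si306 and CFD with PT (below background in both channels) were left out of counts of members, CFD after its values had been seen: counted, it would add 1 lower member at 2 Gy. Named genes were the members with every probe, listed genes that were DEGs or related to a member (C4A and MASP1 were not tested, and 1 gene is not reported here), and the 5 nearest to C1S. Between 57.3% and 74.7% of gene spots were well above background, and the number of arrays limits the precision. Positions of probes are on hg17, of promoters on GRCh38.p14. Tables and figures used Python 3.11.15. Alternatives changed background, normalization, dye model, filter, probe choice, use of scans and arrays.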

Additional observations from a re-analysis of the deposited data

Results flagged for a closer look

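The change with treatment differed between 2 Gy and 10 Gy for 13 results, by the contrast of the doses itself in limma (adjusted p under 0.05). With PT alone these were CFB (-0.15), CD55 (-0.18) and CD46 (-0.26), each lower at 10 Gy on the log2 scale, and CFB and CD55 did not pass with 1 scan per array, without a filter or with each slide fitted on its own. With Si306 added each value compares 2 ratios that have different controls. The ratio was higher at 10 Gy for C1R (0.27), C3 (0.18), CFB (0.21), CFI (0.29), C2 (0.18) and C4B (0.64). It was lower at 10 Gy for CFD (-0.22), CD55 (-0.38), CD59 (-0.43) and GPR77 (-1.15). With median centring CFB with Si306 was -0.08 and C2 -0.01, which relative to the median gene were 0.06 and 0.12. C3 and CFB with Si306 did not pass with 1 scan per array. With background correction fitted on all spots, CFD and CD59 were the only ones of the 13 to pass. The doses had their own positions on each slide, and the part of position in these differences was not tested.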

How the results depend on the processing

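Of 42 tested log2 fold changes of members, 40 kept direction and side of the threshold without background subtraction and also with scans as samples and the array as a random block, 37 with 1 scan per array, 31 with the scanner software's log ratio, 22 with median centring, 20 with the separate-channel model and 19 with normexp fitted on all spots. Of 33 that could be tested, 31 did so with the stricter filter. The cause of each change was not tested. Shares of all genes passing under an alternative are given only for median centring. Counts of members and listed genes under the other settings therefore cannot be read as results about those genes. With 2 arrays per configuration, no setting adds independent samples, and dim probes such as C3 limit what can be read.

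Median centring gave C1R 0.02 and 0.03 with Si306 at 2 and 10 Gy, CFB 0.23 and 0.05 with PT, 0.79 with Si306 at 2 Gy and -0.08 for the difference between doses with Si306, CFI 0.69 with Si306 at 2 Gy, CD55 0.25 with PT at 2 Gy, CD59 0.62 and 0.54 with PT and 0.68 with Si306 at 10 Gy, and differences between PT doses of -0.07 for C1S and -0.08 for CD59. C1S with Si306 moved to -1.23 and -0.69, with a difference of 0.54. These include the shift of all genes, and relative to the median gene C1R, CFB and CD55 kept their sign where they had passed. At 2 Gy with PT 7 members passed in place of 4, where 59.3% of all genes passed as higher and 26% as lower. Between doses with Si306, 4 members differed in place of 7, beside 17.6% of all genes higher and 42.6% lower. With Si306 3 and 1 members were DEGs in place of 1 and 0, and the share of all genes that were DEGs is not given here. Other complement genes passing as lower rose to 12 and 11 with PT and to 13 with Si306 at 10 Gy, beside 26%, 24.4% and 21.8% of all genes. Cytokine inputs passed as higher and lower in 22 and 2 with PT at 2 Gy, 17 and 1 at 10 Gy, 18 and 4 with Si306 at 2 Gy, and 18 and 3 at 10 Gy.

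The separate-channel model gave C1S -1.29 and -1.30 with PT, -3.38 and -2.66 with Si306 and -0.01 between PT doses, C1R -0.05 with PT at 10 Gy, C3 -0.79 and -0.79 with PT and -0.69 and -0.55 with Si306, CFB 2.41 and 2.30 with PT and 2.44 with Si306 at 2 Gy, CFI -2.37 and -2.41 with PT and -2.30 with Si306 at 10 Gy, CD55 -0.14 and -0.52 with Si306, and CD59 0.72 and 0.76 with PT and 0.61 with Si306 at 10 Gy. DEGs among members numbered 4 and 4 with PT and 5 and 3 with Si306. The shares of all genes in this model are not given here, so its counts cannot be read as results about the genes counted. Other complement genes passed as lower in 14 and 12 with PT, and in 14 higher and 12 lower with Si306 at 10 Gy. Cytokine inputs passed as higher in 5 and 5 with PT and 6 with Si306 at 2 Gy, and as lower in 16 at both doses with Si306. Its assumption of equal levels on both slides is the one the same-label RNA goes against.

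Normexp fitted on all spots, added after the values had been seen, gave C1S -1.11 and -0.42 with Si306, C3 -0.01 between doses with Si306, and CFB 0.03 and CFI 0.01 with Si306 at 2 Gy. Members passing numbered 2 and 0 with PT and 2 with Si306 at 10 Gy, 0 and 2 differed between doses (PT, Si306), and 0 were DEGs with Si306. Other complement genes passed as higher in 1 in every configuration, and as lower in 0 and 0 with PT and 2 with Si306 at 10 Gy. The shares of all genes passing in each direction with this fit are not given here. Cytokine inputs passed as higher in 2, 2, 3 and 2 and as lower in 1, 3, 3 and 1.

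The scanner software's and the series matrix's log ratios gave C1S -2.21 and -1.37 with Si306, and 6 other complement genes higher with PT at 2 Gy. The stricter filter left 3, 3, 4 and 2 other complement genes as higher and 2 as lower with PT at 2 Gy, and 3 members passing with 0 DEGs with Si306 at 2 Gy, where it drops CFD and C3. Without a filter 2 other complement genes were lower with PT at 2 Gy. The mean of a gene's probes gave CFI -0.04 with Si306 at 10 Gy and CD59 0.35 and 0.36 with PT. No member differed between PT doses (0 in place of 2) without a filter, with all scans kept under their label, with 1 scan per array and with each slide fitted on its own, the last also added after the values had been seen.

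Leaving out single arrays gave 3 to 4 members passing with PT at 2 Gy (3 without either of its arrays), 3 to 6 with PT at 10 Gy (3 without U87 10 Gy array 2), and 0 to 1 differing between PT doses (0 without any array but U87 10 Gy array 2). C3 with PT at 2 Gy ran from -0.03 to 0.10, below 0 without U87 2 Gy array 2. Other complement genes ran from 6 to 11 higher with PT at 2 Gy (6 without U87 2 Gy array 2), 3 to 5 lower with PT at 10 Gy (3 without U87 10 Gy array 2) and 4 to 10 higher with Si306 at 10 Gy (4 without U87 Si306 + 10 Gy array 2). The calls of C1S with PT at 2 Gy were lost without either array (adjusted p = 0.089 and 0.072) and at 10 Gy without array 2 (adjusted p = 0.085), and the lone array is then assumed to vary like those of the other configurations.

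Replicate numbers gave no pairing: deviations of 30 scan pairs with the same number correlated at -0.09 to 0.09, and those of 151 pairs with different numbers at -0.10 to 0.07. With scans as samples and the replicate number as a block, 4 members differed between PT doses, 15 other complement genes were higher and 10 lower and 11 cytokine inputs higher with Si306 at 10 Gy. With scans as samples and no replicate block the counts were 4, 15 and 10, and 8 other complement genes were lower with PT at 10 Gy. Scans of an array are not independent, so these counts rest on repeats of the same hybridization.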
